A study of Homo sapiens with 51 samples.

Results

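Among 162317 regions measured by ATAC-seq in human embryonic stem cells (hESCs) under neural induction, 2793 opened between day 1 and day 5 in unedited cells and stood at 50% of that level or less in a pair of edited lines. They were chosen by read density, in counts per 1000000 counts of the library (CPM), averaged over the libraries of a group. A region was kept where WT day 5 had at least 4 CPM and at least 2 times WT day 1, and where both KO day 5 and ΔATG day 5 had at most 50% of WT day 5. Of the regions that met the WT criteria, 2793 were low in both lines and are the members described here, 915 were low in KO only, 234 in ΔATG only, and 10312 were kept in both. The values of WT day 1, WT day 5, KO day 5 and ΔATG day 5 under SMADi therefore chose the members, and they are given as a description only.

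The cells were H1, an established hESC line, in 3 genotypes labelled KO, ΔATG (DATG in the sample names) and WT. The labels name neither the edited gene nor the way the lines were made, and do not say whether a line is 1 clone, and the edit itself was not checked here. Neuroectoderm was induced with a commercial SMADi neural induction kit, mesoderm with the growth factor BMP4, and undifferentiated cells were taken at day 0. Under SMADi there were 2 KO, 1 ΔATG and 2 WT libraries on day 1, 1 KO, 2 ΔATG and 2 WT libraries on day 4, and 2 KO, 1 ΔATG and 2 WT libraries on day 5. SMADi days 2 and 3 were not analysed here. Under BMP4 each genotype had 2 libraries on each of days 1 to 5, and at day 0 each had 2. Nothing in the labels tells whether libraries a and b of a group began as separate cultures, so each p-value rests on a spread between libraries that may be technical alone.

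ATAC-seq reports where a transposase can reach the DNA, which marks promoters and enhancers that are free of tightly packed nucleosomes. SMAD proteins carry the signals of the Nodal/Activin and BMP families into the nucleus. Blocking both branches turns pluripotent cells toward the neural plate, where regions near SOX, PAX, ZIC and OTX genes open while regions that serve pluripotency close. BMP4 instead activates SMAD signalling and leads toward mesoderm and extraembryonic fates.

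Total counts per library were 7086918 to 23252871 under SMADi, 4019778 to 13850448 under BMP4 and 4616521 to 7516259 at day 0. The WT day 5 replicate a library, which took part in choosing the members, was the shallowest under SMADi. Regions linked to 8 neuroectoderm genes summed to 703 CPM in KO, 717 to 746 CPM in ΔATG and 682 to 731 CPM in WT on day 4. Regions linked to 6 pluripotency genes summed to 182 CPM in KO and 180 to 190 CPM in ΔATG, against 251 to 273 CPM in WT on day 4. At 4 amnion and trophoblast genes the sums were 61.6 CPM in KO and 64.7 to 70.3 CPM in ΔATG, against 77.6 to 79.3 CPM in WT. Sums at 6 mesoderm, 3 endoderm, 3 neural crest and 3 mesenchyme genes were 228, 66.8, 119 and 150 CPM in KO, 227 to 229, 71.7 to 78.9, 120 to 127 and 151 CPM in ΔATG, and 219 to 237, 74.0 to 92.2, 125 to 133 and 140 to 151 CPM in WT. No marker list was at 0 in any library. Gene starts came from a list that held none on chromosome 8, so that chromosome was left out of the next share. The share of counts within 1 kb of a listed gene start was 39.1% in KO and 38.4% and 39.9% in ΔATG, against 36.5% and 34.5% in WT on day 4. The part of these differences in the results was not tested. A single library went against its label. Over 152 regions higher and 41 lower in KO than in ΔATG at day 0, the library labelled KO day 1 replicate b scored -0.95 on the log2 scale. The other KO libraries under SMADi scored 0.26 to 0.94, the ΔATG libraries -1.62 to -1.09 and the WT libraries -1.08 to -0.21. Results on KO day 4 against KO day 1 rest on it, and their values without it stand beside them.

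Most members lay away from gene starts. Of the 2668 members on chromosomes with annotated starts, 74 (2.77%) lay within 1 kb of one, against 5.26% of the opened regions kept in both lines and 24.1% of all regions. The median distance to a start was 36770 bp for members and 14340 bp for all regions. Of the 2793 members, 47.4% fell inside a protein-coding gene, 14.5% inside a lncRNA gene alone and 38.1% outside genes. No region of the BMP4 or day 0 tables overlapped 59.9% of the members, against 25.2% of all regions. Members less than 50 kb apart formed 2494 stretches, 2236 of them with 1 member, 225 with 2 and 33 with 3 or more. Among protein-coding genes SORCS1, which encodes a neuronal sorting receptor, held 6 members among 34 regions. FHIT (41 regions), NCALD (23), NTM (89), OPCML (67), PLEKHA7 (35) and SNX29 (43) held 5 members each. Opened regions kept in both lines numbered 1 in SORCS1, 9 in NTM, 4 each in OPCML and SNX29, and 3 each in FHIT, NCALD and PLEKHA7. NTM and OPCML encode cell adhesion molecules of neurons.

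Sequence could be read only where a member met a RefSeq promoter window (GRCh38.p14, 250 bases before to 50 after a start), which 30 members did, in 32 windows. Of these, 4 lay wholly before a start, and they are printed because their full 201 bases could be read, whatever their values. Letters run 5′ to 3′ on the strand of the gene, and capitals mark matches to the motifs named below. TAS2R7, a bitter taste receptor gene, has the member at chr12:10802676-10802876 (minus strand, 249 to 49 bases before the start). OTOP3, a proton channel gene, has the member at chr17:74935601-74935801 (plus strand, 201 to 1 bases before the start). JAML, which encodes a junctional adhesion molecule, has chr11:118212990-118213190 (minus strand, 244 to 44 bases before). LMNTD1, named for a lamin tail domain, has chr12:25648591-25648791 (minus strand, 213 to 13 bases before).
TAS2R7: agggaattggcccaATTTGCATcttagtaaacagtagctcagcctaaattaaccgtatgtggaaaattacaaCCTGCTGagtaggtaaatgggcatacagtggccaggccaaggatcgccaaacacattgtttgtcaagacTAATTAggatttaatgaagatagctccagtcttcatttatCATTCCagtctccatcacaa
OTOP3: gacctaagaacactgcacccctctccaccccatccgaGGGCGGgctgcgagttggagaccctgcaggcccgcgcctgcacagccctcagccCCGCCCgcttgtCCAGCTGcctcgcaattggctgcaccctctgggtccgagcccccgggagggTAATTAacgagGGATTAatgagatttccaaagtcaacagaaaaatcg
JAML: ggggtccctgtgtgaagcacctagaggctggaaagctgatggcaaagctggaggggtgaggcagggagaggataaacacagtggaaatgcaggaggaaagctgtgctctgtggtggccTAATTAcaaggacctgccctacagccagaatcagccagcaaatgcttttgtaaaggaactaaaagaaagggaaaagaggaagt
LMNTD1: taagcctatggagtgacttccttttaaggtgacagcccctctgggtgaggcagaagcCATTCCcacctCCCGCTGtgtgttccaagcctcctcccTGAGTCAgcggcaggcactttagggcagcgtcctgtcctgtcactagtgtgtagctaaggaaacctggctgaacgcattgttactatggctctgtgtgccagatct
The TAS2R7 member holds the POU octamer in reverse (ATTTGCAT) and the homeobox core TAATTA. The OTOP3 and JAML members hold TAATTA as well, and OTOP3 also holds the OTX and PITX core in reverse (GGATTA). The LMNTD1 member holds an AP-1 match (TGAGTCA) and no TAATTA.

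At the TAS2R7 member, day 4 values were 0.862 CPM in KO and 2.37 and 1.51 CPM in ΔATG, against 8.59 and 9.59 CPM in WT. The mutant libraries lay below both WT libraries, and the region was lower in KO (log2 fold change -3.33 ± 0.44, adjusted p = 2.33e-07 from edgeR, SE after the sign) and in ΔATG (-2.20 ± 0.29, adjusted p = 1.24e-07). At OTOP3 they were 3.91 CPM in KO and 4.26 and 5.06 CPM in ΔATG, against 6.98 and 8.25 CPM in WT, lower in KO (-0.90 ± 0.31, adjusted p = 0.0282) and in ΔATG (-0.67 ± 0.24, adjusted p = 0.0299). At JAML they were 3.18 CPM in KO and 4.94 and 3.86 CPM in ΔATG, against 6.72 and 7.56 CPM in WT, again without overlap and lower in KO (-1.10 ± 0.35, adjusted p = 0.0162) and in ΔATG (-0.67 ± 0.26, adjusted p = 0.0495). The LMNTD1 member had 3.78 CPM in KO and 3.04 and 3.74 CPM in ΔATG, against 3.04 and 4.00 CPM in WT, with overlapping groups and no call in either line (adjusted p = 0.778 in KO and 0.975 in ΔATG). The OTOP3 and JAML calls depended on single libraries. Without WT day 4 replicate b the adjusted p was 0.139 in KO and 0.217 in ΔATG at OTOP3, and 0.074 in KO and 0.23 in ΔATG at JAML. Without ΔATG replicate a or b it was 0.212 and 0.0695 in ΔATG at OTOP3, and 0.0808 and 0.326 at JAML, where it was 0.0785 without WT replicate a. With DESeq2 it was 0.113 in KO and 0.119 in ΔATG at OTOP3, and 0.0794 in KO and 0.18 in ΔATG at JAML.

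Over the 32 windows, 18 motifs were searched on both strands, and the share of windows with a match was set beside that of the 18999 windows that met any SMADi region and that of all 35116 windows. TAATCC, the core read by OTX and PITX factors, was in 8 member windows (25%), against 4.39% of the windows at any SMADi region and 6.36% of all windows. TAATTA, the core of many homeodomain factors, was in 5 (15.6%), against 1.98% and 4.84%. ACAANGG, a SOX motif, was in 7 (21.9%), against 9.37% and 12%, and TGANTCA (AP-1) in 6 (18.8%), against 4.35% and 7.71%. GGGCGG, the motif of SP and KLF factors, was in 4 (12.5%), against 69.8% and 45.0%. Shares for zinc finger and nuclear receptor motifs were 40.6% for CAGCNGG (ZIC; 37.4% and 31.0%), 37.5% for CAGGTG (ZEB; 19.4% and 20.6%) and 28.1% for AGGTCA (NR2F; 9.61% and 13.8%). They were 25% for GGAATG (TEAD), against 11.3% and 14.0%, and 25% for CAGCTG (E-box), against 17.6% and 17.9%. They were 15.6% for TTGGCA (NFI), against 9.16% and 12.5%, 9.38% for CTTTGAA (TCF and LEF), against 2.43% and 4.43%, and 6.25% for AGATAA, a motif of GATA factors, against 4.69% and 10.3%. ATGCAAAT, the octamer, was in 1 window (3.12%), against 1.38% and 1.77%. No match to GTTGCCATG (RFX), the CTCF core, GTCTAGAC (SMAD) or AATCCACA (FOXH1) was found in these letters. CAGCTG overlaps many CAGCNGG matches. The median G and C content was 49.0% in member windows, 66.0% in windows at any SMADi region and 58.7% in all windows, and its part in these shares was not tested. All 300 bases of a window were searched, also those outside the member. Windows can overlap, so a site can count more than once, as TAATTA and GGATTA do at OTOP3 and AGGTCA at LINC03122. The windows are few and come from the minority of members near a start, and a match is a description, not a bound site.

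Before opening, the members' median level was 1.52 and 1.40 CPM in KO, 1.36 CPM in ΔATG and 1.47 and 1.45 CPM in WT on day 1. On day 5 it was 1.81 and 1.83 CPM in KO and 2.02 CPM in ΔATG, against 6.49 and 5.92 CPM in WT. Members took 0.611% and 0.61% of all counts in KO and 0.679% in ΔATG on day 5, against 2.16% and 2.02% in WT. WT day 5 was at least 4 times WT day 1 at 1462 members (52.3%) and reached 10 CPM at 498 (17.8%). The members nearest the threshold, linked to UBE2G2, CLIP2 and TMTC2, had 0.49996, 0.49979 and 0.49939 of the WT day 5 level in the higher mutant line. The nearest regions outside it, linked to XIRP2, PPP3CA and EVC, had 0.50025, 0.50034 and 0.50037. Chosen without WT day 5 replicate a there were 2781 members, of which 2101 were shared with the rule (75.2% of its members). Without replicate b there were 3609, of which 2406 were shared (86.1%).

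**Figure D1:**
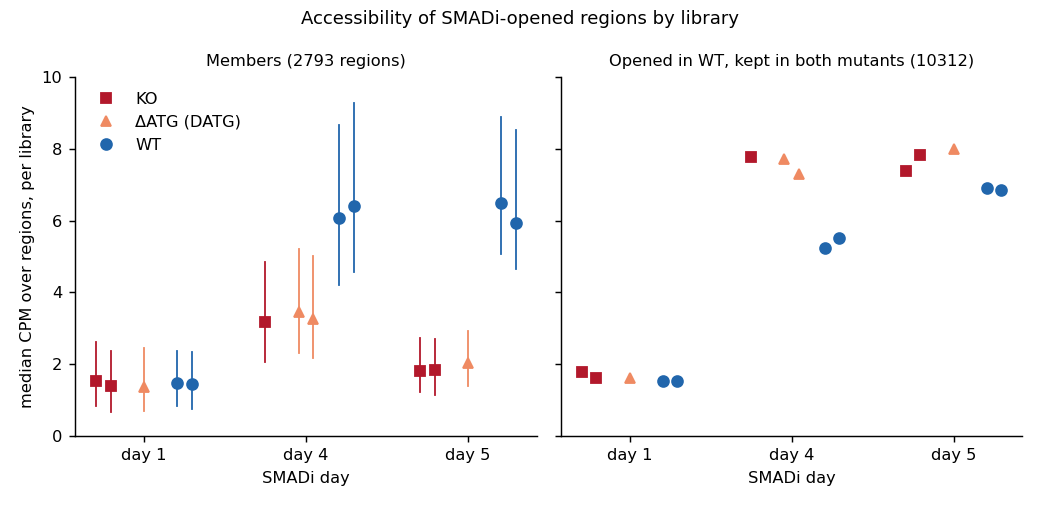
Median CPM over the 2793 members (left, with lines from the lower to the upper quartile) and over the 10312 opened regions kept in both lines (right) in each SMADi library, by day and genotype. On day 4 the members stand at 3.18 to 3.45 CPM in the mutant libraries and 6.07 to 6.41 CPM in WT, while the kept regions stand at 7.30 to 7.76 CPM in the mutant libraries and 5.23 to 5.52 CPM in WT.

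Day 4 was not used to choose the members, and they were already less open there in both mutant lines. The median member level was 3.18 CPM in KO and 3.45 and 3.26 CPM in ΔATG, against 6.07 and 6.41 CPM in WT. In edgeR's quasi-likelihood test, 1314 members (47.0%) were lower in KO than in WT and 19 were higher, where 14% of all regions tested were lower and 10.9% higher. In ΔATG 1526 (54.6%) were lower and 30 higher, where 17.4% of all regions were lower and 13.2% higher. The median log2 fold change over members was -0.84 in KO and -0.76 in ΔATG, and over all regions it was -0.01 in KO and 0.01 in ΔATG. All 2793 members passed the filter on low counts. The KO and ΔATG comparisons share the WT libraries. In a bulk sample, fewer cells with a region open and less opening per cell cannot be told apart.

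At 2133 members (76.4%) all 3 mutant libraries of day 4 lay below both WT libraries, where 32.3% of all regions did, and at 98 (3.51%) all lay above, where 26.4% did. The opened regions kept in both lines leaned the other way. Of these 10312, 4031 (39.1%) were higher in KO and 222 lower, and 4336 (42.0%) were higher in ΔATG and 416 lower, with median log2 fold changes of 0.52 in KO and 0.45 in ΔATG. Both sets were chosen on day 5, so their values describe how far the day 5 split was present a day earlier. The small counts of higher members depended on single libraries. The count of 30 in ΔATG was 11 without WT day 4 replicate a, 11 without ΔATG replicate a and 9 without ΔATG replicate b. The count of 19 in KO was 2 without WT day 4 replicate a.

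**Figure D2:**
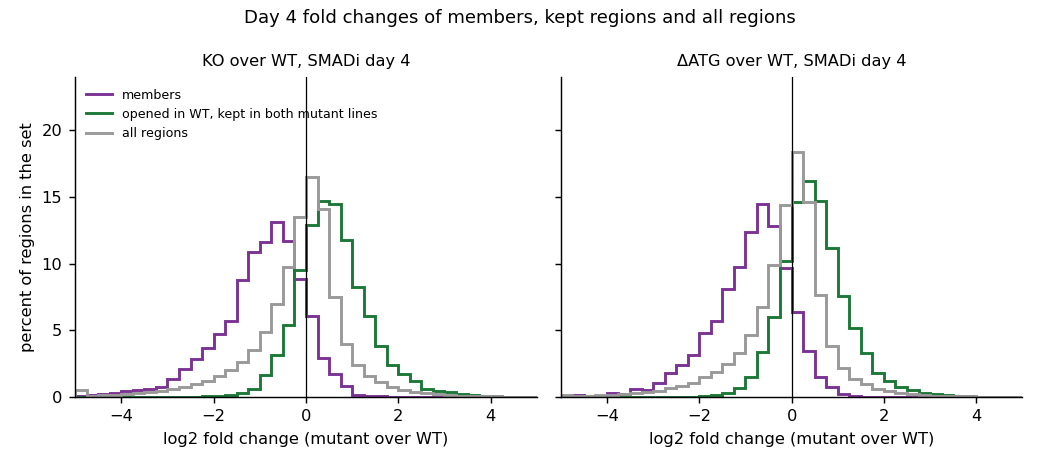
Percent of regions by log2 fold change on SMADi day 4, KO over WT (left) and ΔATG over WT (right), in bins 0.25 wide, with changes beyond 5 in either direction placed in the outer bins. Members lie mostly below 0 (medians -0.84 in KO and -0.76 in ΔATG) and kept regions mostly above 0 (medians 0.52 and 0.45).

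The mutant lines had opened many members part of the way by day 4. Against KO day 1, 1622 members (58.1%) were higher in KO on day 4 and 52 were lower, where 23.2% of all regions were higher and 20.3% lower, with a median log2 change of 1.20. Without the library labelled KO day 1 replicate b, 1317 were higher (47.2%, where 19.2% of all regions were higher) and 40 lower, with a median of 1.15, and without replicate a 34 were lower. When libraries were scaled by their totals the all-region median was -0.14, and 1500 members were then higher and 71 lower. Against ΔATG day 1, 1640 (58.7%) were higher in ΔATG on day 4 and 66 lower, where 23.6% of all regions were higher and 22.4% lower, with a median of 1.33. The count of 66 was 36 without ΔATG day 4 replicate b. Of the kept regions 9642 (93.5%) were higher in KO (9113 without the library labelled KO day 1 replicate b) and 9263 (89.8%) in ΔATG.

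KO day 4 reached at least 2 times KO day 1 at 1475 members (52.8%, or 1422 without the library labelled KO day 1 replicate b) and ΔATG day 4 reached it over ΔATG day 1 at 1679 (60.1%), while WT did so at 2508 (89.8%). The rule used WT day 1 and required a rise in WT, so the WT share is raised by the choice and is a description only. The day 5 level, which chose the members, was below the day 4 level at 2522 members (90.3%) in KO and 2520 (90.2%) in ΔATG, and at 1159 (41.5%) in WT. KO and ΔATG did not part on day 4 beyond the threshold. No member was called in either direction by edgeR or DESeq2, where edgeR called 0.00246% of all regions lower in KO and 0.0117% higher. At an unadjusted p under 0.05, 78 members (2.79%) were lower in KO than in ΔATG and 30 (1.07%) higher, where 2.09% of all regions were lower and 1.61% higher. The median difference was -0.07.

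Among the 8 members named for the highest WT day 5 level, some had opened far in the mutant lines by day 4. VWF encodes von Willebrand factor, a clotting protein of endothelium, and a member inside it had 18.9 CPM in KO and 19.8 and 17.6 CPM in ΔATG, against 24.2 and 26 CPM in WT on day 4. On day 1 it had 0.59 and 0.443 CPM in KO and 0.425 CPM in ΔATG, against 0.764 and 0.622 CPM in WT. It rose between those days in KO (5.31 ± 0.30, adjusted p = 6.24e-18, and 5.11 ± 0.39 without the library labelled KO day 1 replicate b) and in ΔATG (5.46 ± 0.39, adjusted p = 1.27e-14). On day 4 the mutant libraries were below WT, and the difference passed in ΔATG (-0.39 ± 0.15, adjusted p = 0.0497) but not in KO (-0.35 ± 0.19, adjusted p = 0.186). On day 5 it had 7.25 and 9.09 CPM in KO and 11.2 CPM in ΔATG, against 28.9 and 28.3 CPM in WT, with every mutant library below those of day 4. The day 4 call in ΔATG was lost when any of the 4 ΔATG and WT day 4 libraries was left out (adjusted p 0.078 to 0.297) and with DESeq2 (0.159).

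ZNF804A encodes a zinc finger protein of the brain, and the member near it had 20.0 CPM in KO and 22.2 and 23.6 CPM in ΔATG, against 18.5 and 20.9 CPM in WT on day 4, with overlapping groups. On day 5 it had 11.5 and 15.5 CPM in KO and 13.8 CPM in ΔATG, against 31.6 and 26.4 CPM in WT. The member near CMKLR2, a chemerin receptor gene, had 17.3 CPM in KO and 15.9 and 14.8 CPM in ΔATG, against 22.4 and 20.3 CPM in WT on day 4. Its mutant libraries lay below WT without passing the test (adjusted p = 0.443 in KO and 0.0501 in ΔATG).

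Other members of this kind were lower by day 4. AFG2A, a gene of ribosome maturation, holds a member with 24.9 CPM in KO and 22.2 and 19.7 CPM in ΔATG, against 33.1 and 33.0 CPM in WT on day 4, lower in ΔATG (-0.62 ± 0.14, adjusted p = 0.000492), with -0.35 ± 0.17, adjusted p = 0.134 in KO. The member near JAKMIP2, a gene expressed in neurons, had 18.0 CPM in KO and 18.2 and 17.6 CPM in ΔATG, against 23.9 and 26.5 CPM in WT, lower in ΔATG (-0.46 ± 0.15, adjusted p = 0.0159), with -0.43 ± 0.19, adjusted p = 0.0861 in KO. In neither case did KO and ΔATG differ past the threshold. The member near THSD4, which encodes an extracellular matrix protein, had 18.4 CPM in KO and 18.9 and 15.7 CPM in ΔATG, against 24.7 and 30.1 CPM in WT, lower in KO (-0.51 ± 0.20, adjusted p = 0.0478) and in ΔATG (-0.63 ± 0.16, adjusted p = 0.00171). Of these calls, that at JAKMIP2 was lost without WT day 4 replicate b (adjusted p 0.163), ΔATG replicate a (0.0776) or ΔATG replicate b (0.11) and with DESeq2 (0.0576). At THSD4 the KO call was lost without WT replicate b (0.312) and with DESeq2 (0.155), and the ΔATG call without WT replicate b (0.0781) or ΔATG replicate b (0.0737).

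The 8 members with the lowest day 4 p-values in ΔATG were close to shut in both mutant lines. The ΔATG day 4 libraries that named them also enter the comparison of day 4 with day 1 in ΔATG, so the naming favours falls there. Over all regions 22.4% were lower on day 4 in ΔATG and 20.3% in KO, and 23.6% and 23.2% were higher. Of the 8, 4 fell between day 1 and day 4 in ΔATG and 2 in KO, and none rose in either. Without the library labelled KO day 1 replicate b 1 fell in KO, and with DESeq2 1 did. FBXO10 encodes an F-box subunit of a ubiquitin ligase, and on day 4 its member had 0.597 CPM in KO and 0.203 and 0.362 CPM in ΔATG, against 8.66 and 10.9 CPM in WT (KO -3.95 ± 0.47, adjusted p = 2.52e-08; ΔATG -5.02 ± 0.40, adjusted p = 5.77e-13). IHO1, a gene of meiotic recombination, holds a member with 0.199 CPM in KO and 0.406 and 0.181 CPM in ΔATG, against 8.08 and 8.06 CPM in WT (KO -5.23 ± 0.64, adjusted p = 4.49e-08; ΔATG -4.74 ± 0.44, adjusted p = 4.01e-11). No mutant library reached 1 CPM at either. MAN1A2 encodes a mannosidase of the Golgi, and the member near it had 0.796 CPM in KO and 1.42 and 1.51 CPM in ΔATG, against 15.5 and 13.5 CPM in WT (KO -4.11 ± 0.40, adjusted p = 3.43e-10; ΔATG -3.26 ± 0.27, adjusted p = 1.97e-12). It had been at 7.0 and 5.31 CPM in KO and 4.16 CPM in ΔATG, against 3.95 and 2.56 CPM in WT on day 1 and fell in KO (-2.81 ± 0.43, adjusted p = 6.91e-07, and -2.99 ± 0.46 without the library labelled KO day 1 replicate b) and in ΔATG (-1.47 ± 0.37, adjusted p = 0.00113).

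A further 4 of the 8 lay near TLE1, a gene of a Groucho-type corepressor, RAB40C, a small GTPase gene, P2RX4, an ATP-gated channel gene, and RASEF, a RAB family gene. TLE1 had 0.729 CPM in KO and 1.29 and 0.784 CPM in ΔATG, against 10.9 and 12.1 CPM in WT, and RAB40C had 0.862 CPM in KO and 1.56 and 0.965 CPM in ΔATG, against 12.7 and 14.6 CPM in WT. P2RX4 had 1.13 CPM in KO and 0.541 and 0.422 CPM in ΔATG, against 7.43 and 7.75 CPM in WT, and RASEF had 0.862 CPM in KO and 0.271 and 0.543 CPM in ΔATG, against 8.79 and 11.2 CPM in WT. All mutant libraries lay below WT at each of the 4. The most negative changes in KO also included members near PRPF38B, a splicing factor gene, with 0.332 CPM in KO and 1.01 and 0.663 CPM in ΔATG, against 9.17 and 8.25 CPM in WT (KO -4.62 ± 0.56, adjusted p = 3.42e-08; ΔATG -3.34 ± 0.35, adjusted p = 8e-10). They included SQOR, a gene of sulfide oxidation, with 0.332 CPM in KO and 0.879 and 0.241 CPM in ΔATG, against 6.07 and 8.95 CPM in WT (KO -4.41 ± 0.60, adjusted p = 3.52e-07; ΔATG -3.73 ± 0.41, adjusted p = 1.79e-09), and MYO5B, which encodes a myosin of vesicle transport, with 0.133 CPM in KO and 1.01 and 0.362 CPM in ΔATG, against 2.97 and 4.19 CPM in WT (KO -4.61 ± 0.81, adjusted p = 2.87e-05; ΔATG -2.36 ± 0.45, adjusted p = 6.37e-05).

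The stretch with the most members lay on chromosome 2 below SIX3, the gene of a homeodomain factor of the anterior neural plate, forebrain and eye. It held 6 members at chr2:44774936-44790614, nearest to CAMKMT, a calmodulin methyltransferase gene, and another stretch held 4 at chr2:44937422-44954647, around SIX3 itself. Between 200 kb below and 50 kb above the lower annotated end of SIX3, 9 of the 10 members were lower in KO on day 4 and 8 in ΔATG, and none was higher. Of the 9 opened regions kept in both lines there, 1 was lower and 1 higher in KO, and 2 were lower and 1 higher in ΔATG. A further 51 regions there did not meet the WT criteria. Of these, 5 were lower and 6 higher in KO, and 8 were lower and 10 higher in ΔATG. Those 1.3 to 2.8 kb above that end, inside SIX3, had log2 fold changes of 1.25 to 3.01 in KO and 1.48 to 2.74 in ΔATG. The 23 regions linked to SIX3 summed to 166 CPM in KO and 175 and 181 CPM in ΔATG, against 196 and 188 CPM in WT on day 4.

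The member over the lower end of SIX3 (chr2:44941588-44941788, within SIX3-AS1, an antisense lncRNA gene) had 5.37 CPM in KO and 4.33 and 5.43 CPM in ΔATG, against 11.5 and 13.7 CPM in WT on day 4. It was lower in KO (-1.17 ± 0.28, adjusted p = 0.00157) and in ΔATG (-1.33 ± 0.22, adjusted p = 8.75e-06), though it had risen over day 1 in KO (1.17 ± 0.32, adjusted p = 0.00261, and 1.22 ± 0.40 without the library labelled KO day 1 replicate b) and in ΔATG (1.35 ± 0.37, adjusted p = 0.00281). Among the members of the locus the most negative change was at chr2:44774936-44775136. This member had 0.862 CPM in KO and 1.35 and 0.724 CPM in ΔATG, against 7.75 and 8.13 CPM in WT. Its change was -3.13 ± 0.47 in KO (adjusted p = 2e-06) and -2.91 ± 0.34 in ΔATG (adjusted p = 8.84e-09). The most open member there, chr2:44790414-44790614, had 9.75 CPM in KO and 13.8 and 12.6 CPM in ΔATG, against 28.7 and 25.1 CPM in WT (KO -1.41 ± 0.21, adjusted p = 2.81e-06; ΔATG -0.99 ± 0.16, adjusted p = 5.13e-06). All mutant libraries lay below WT at each of these. Its neighbour chr2:44789748-44789948 had 1.66 CPM in KO and 3.79 and 4.04 CPM in ΔATG, against 4.85 and 3.49 CPM in WT, lower in KO (-1.27 ± 0.41, adjusted p = 0.0184) but not called in ΔATG (adjusted p = 0.91). The KO call there was lost without WT day 4 replicate a and with DESeq2 (adjusted p 0.0852). The KO call at the member chr2:44954447-44954647 was lost under the same alternatives. Its ΔATG call was lost without WT replicate a, ΔATG replicate a or ΔATG replicate b and with DESeq2. At chr2:44790073-44790273 the ΔATG call was lost without WT replicate a or ΔATG replicate b and with DESeq2. The locus counts of 9 in KO and 8 in ΔATG include these calls.

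**Figure D3:**
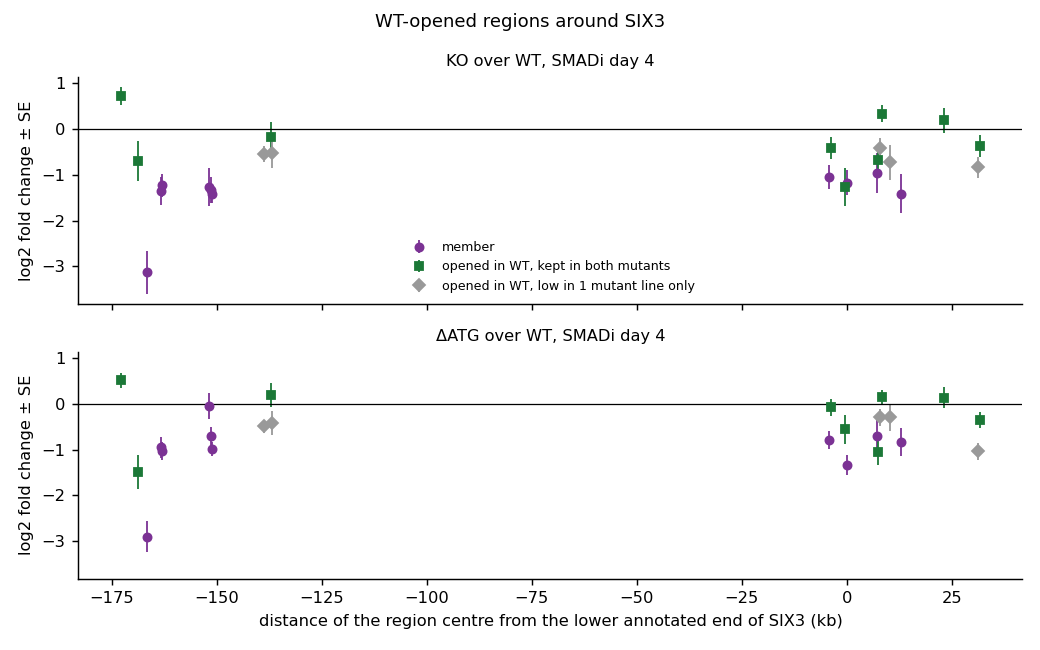
Log2 fold change ± SE of each WT-opened region near SIX3 on SMADi day 4, KO over WT and ΔATG over WT, by distance from the lower annotated end of SIX3. Regions that did not meet the WT criteria, some of them higher in the mutant lines, are not drawn. Members lie between -3.13 and -0.96 in KO and between -2.91 and -0.05 in ΔATG, and kept regions lie between -1.27 and 0.72 in KO and between -1.50 and 0.51 in ΔATG.

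Besides the one at SIX3, 4 other stretches held 4 members each. Within PLEKHA7, a gene of adherens junctions, 3 of 4 members were lower in KO and 3 in ΔATG. There chr11:16977926-16978126 had 11.1 CPM in KO and 12.2 and 12.4 CPM in ΔATG, against 20.5 and 22.7 CPM in WT (KO -0.91 ± 0.22, adjusted p = 0.0021; ΔATG -0.78 ± 0.17, adjusted p = 0.000563). Every mutant library lay below WT, although the region had risen over day 1 in KO (2.82 ± 0.28, adjusted p = 3.54e-11, and 2.58 ± 0.34 without the library labelled KO day 1 replicate b) and in ΔATG (2.74 ± 0.32, adjusted p = 2.9e-09). At BMP7, which encodes a BMP ligand, 2 of 4 members were lower in KO and 1 in ΔATG. Of these, chr20:57232085-57232285 inside the gene had 2.12 CPM in KO and 2.10 and 1.75 CPM in ΔATG, against 8.53 and 9.84 CPM in WT (KO -2.05 ± 0.35, adjusted p = 2.44e-05; ΔATG -2.22 ± 0.28, adjusted p = 3.1e-08). In ΔATG that region fell between day 1 and day 4 (-1.38 ± 0.35, adjusted p = 0.00143). Along FOXE3 and FOXD2, which encode forkhead factors, 2 of 4 members were lower in each line, and within NCALD, a neuronal calcium sensor gene, 3 of 4 were. Along FOXE3 and FOXD2 the calls were lost without WT day 4 replicate b (adjusted p 0.182 at FOXE3 and 0.107 at FOXD2 in KO, 0.0606 at FOXE3 and 0.143 at FOXD2 in ΔATG), and that at FOXD2 in ΔATG without ΔATG replicate a (0.158). A single BMP7 call in KO was lost without WT day 4 replicate a (0.0846) or b (0.115).

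Of 370 genes in 19 lists, 35 had a member within 50 kb, 47 members in all. Over all regions linked to a protein-coding gene, 1.2% were members and 4.88% were opened and kept. For anterior neural plate and forebrain genes 5 of 563 linked regions (0.888%) were members, at HESX1 and SIX3, and 51 (9.06%) were kept, and 3 of the 5 were lower on day 4 in each line. For neural SOX, PAX and ZIC genes 7 of 450 (1.56%) were members, at PAX7, POU3F1, SOX1, SOX6, SOX9 and ZIC4, and 51 (11.3%) were kept, and 3 of the 7 were lower in each line. For Notch genes 3 of 256 (1.17%) were members and 31 (12.1%) kept, and for axon guidance genes 2 of 408 (0.49%) and 41 (10.0%), none of these members lower on day 4. Neural adhesion and progenitor genes had 4 of 369 (1.08%), at DACH1, NCAM1, TCF7L2 and VIM, none lower in KO and 2 in ΔATG. Over all 2793 members 47.0% were lower in KO and 54.6% in ΔATG on day 4, and over all regions 14% and 17.4%. The counts of single lists here and below are to be read beside these shares. Over the 47 members, 17 were lower in KO and 18 in ΔATG on day 4. These counts were 8 in KO and 10 in ΔATG without WT day 4 replicate b, 11 and 13 without WT replicate a, 11 in ΔATG without ΔATG replicate a, 10 in ΔATG without ΔATG replicate b, and 6 in KO and 11 in ΔATG with DESeq2. Counts of single lists depended on single libraries as well. In neural adhesion and progenitor genes none was lower in ΔATG without WT replicate b or ΔATG replicate b.

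Signalling lists had members at named parts of each pathway. The Nodal and TGF-beta list had 6 of 220 (2.73%), at the receptor genes ACVR2A and TGFBR1 and the transducer genes SMAD2 and SMAD3, with 3 lower in KO and 3 in ΔATG. The BMP list had 6 of 304 (1.97%), at the ligand genes BMP2 and BMP7 and the inhibitor gene SMAD6, with 4 lower in KO and 3 in ΔATG. The WNT list had 2 of 359, both at SFRP1, with 1 lower in KO and 2 in ΔATG. Amnion and trophoblast genes had 5 of 252, at HAND1, KRT19 and VTCN1, with 1 lower in KO and none in ΔATG. Pluripotency genes had 2 of 291, at POU5F1 and PRDM14, with 1 lower in each line, and HOX and CDX genes 1 of 233, at HOXC5, lower in each line. Mesoderm genes had 2 of 343 (HAND1), endoderm genes 2 of 192, epithelial genes 2 of 158 (KRT19), TEAD and YAP genes 1 of 155 (TEAD4) and mesenchyme genes 1 of 140 (ACTA2), with none lower in either line. Neural crest and placode (0 of 320), immediate early AP-1 (0 of 189) and ribosomal protein genes (0 of 127) had none. Without WT day 4 replicate b the Nodal and TGF-beta count was 1 in each line, the BMP count 2 in each line and the WNT count 0 in KO and 1 in ΔATG, and no member at amnion and trophoblast, pluripotency or HOX and CDX genes was lower.

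Of the 20 members linked to listed genes and named by WT day 5 level, 5 were lower in KO on day 4 and 7 in ΔATG, and none was higher in either line. Without WT day 4 replicate b 2 were lower in KO and 4 in ΔATG, and without ΔATG replicate b 4 in ΔATG. Between day 1 and day 4, 15 of the 20 rose in KO (14 without the library labelled KO day 1 replicate b) and 13 in ΔATG. Over all members 47.0% were lower in KO and 54.6% in ΔATG on day 4, and 58.1% and 58.7% rose between day 1 and day 4. Over all regions 14% and 17.4% were lower, and 23.2% and 23.6% rose. ZIC4 encodes a zinc finger factor of the dorsal neural tube, and the member inside it had 11.7 CPM in KO and 12.9 and 12 CPM in ΔATG, against 23.7 and 24.4 CPM in WT on day 4. It was lower in KO (-0.99 ± 0.20, adjusted p = 0.000185) and in ΔATG (-0.92 ± 0.15, adjusted p = 8.77e-06). SOX1 encodes a SOXB1 factor of neural progenitors. On day 4 the 31 regions linked to it summed to 172 CPM in KO and 179 and 184 CPM in ΔATG, against 159 and 141 CPM in WT. The member near it went the other way, with 2.19 CPM in KO and 1.49 and 2.71 CPM in ΔATG, against 3.75 and 7.11 CPM in WT. It was lower in KO (-1.25 ± 0.43, adjusted p = 0.0269) and in ΔATG (-1.32 ± 0.34, adjusted p = 0.00214). The groups did not overlap there, but the WT libraries lay wide apart, and without WT replicate b the adjusted p was 0.345 in KO and 0.186 in ΔATG. Without ΔATG replicate a it was 0.093 in ΔATG, and with DESeq2 0.124 in KO.

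SFRP1, a secreted WNT antagonist, holds a member with 8.49 CPM in KO and 7.10 and 7.54 CPM in ΔATG, against 12.9 and 17.9 CPM in WT (KO -0.80 ± 0.25, adjusted p = 0.0138; ΔATG -1.04 ± 0.20, adjusted p = 7.12e-05). The member near TGFBR1, the type I TGF-beta receptor gene, had 8.55 CPM in KO and 8.66 and 10.2 CPM in ΔATG, against 13.7 and 14.2 CPM in WT (KO -0.64 ± 0.24, adjusted p = 0.0478; ΔATG -0.53 ± 0.19, adjusted p = 0.0337). Neither member's groups overlapped. TCF7L2, a nuclear effector of WNT signalling, had 6.96 CPM in KO and 6.63 and 5.31 CPM in ΔATG, against 10.1 and 12.9 CPM in WT, and VIM, which encodes the intermediate filament vimentin, had 5.83 CPM in KO and 6.63 and 4.88 CPM in ΔATG, against 8.27 and 10.2 CPM in WT. Both passed in ΔATG (adjusted p = 0.00216 for TCF7L2 and 0.0283 for VIM) but not in KO (0.0861 and 0.127). These calls depended on single libraries too. Without WT day 4 replicate b the adjusted p was 0.193 in KO at SFRP1, 0.136 in KO and 0.144 in ΔATG at TGFBR1, 0.066 in ΔATG at TCF7L2 and 0.249 in ΔATG at VIM. Without ΔATG replicate b it was 0.0645 at TGFBR1, 0.0715 at TCF7L2 and 0.307 at VIM, and at TGFBR1 it was 0.0826 in KO and 0.0776 in ΔATG without WT replicate a and 0.25 in ΔATG without ΔATG replicate a.

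The rest of the 20 were not called between genotypes on day 4. HESX1, a homeobox repressor of the anterior neural plate, had 3.12 CPM in KO and 2.77 and 2.65 CPM in ΔATG, against 5.36 and 3.43 CPM in WT on day 4 and 0.0843 and 0.148 CPM in KO and 0 CPM in ΔATG, against 0.0637 and 0.207 CPM in WT on day 1, and opened in KO (adjusted p = 6.33e-08, and 1.3e-05 without the library labelled KO day 1 replicate b) and in ΔATG (adjusted p = 1.6e-06). POU3F1, a POU factor gene of early neural cells, had 4.38 CPM in KO and 5.68 and 5.61 CPM in ΔATG, against 8.59 and 7.62 CPM in WT. Its mutant libraries lay below WT without passing the test (adjusted p = 0.0967 in KO and 0.199 in ΔATG). ACVR2A, an activin receptor gene, had 10.5 CPM in KO and 10.6 and 8.92 CPM in ΔATG, against 9.88 and 11.9 CPM in WT, and SMAD3 had 6.76 CPM in KO and 7.17 and 5.31 CPM in ΔATG, against 5.88 and 8.32 CPM in WT. The groups overlapped at both. DLL1, a Notch ligand gene, had 9.42 CPM in KO and 10.8 and 11.8 CPM in ΔATG, against 13.0 and 13.8 CPM in WT, and PLXNA4, a semaphorin receptor gene, had 16.2 CPM in KO and 18.1 and 15.7 CPM in ΔATG, against 16.6 and 20.7 CPM in WT, neither called.

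**Figure D4:**
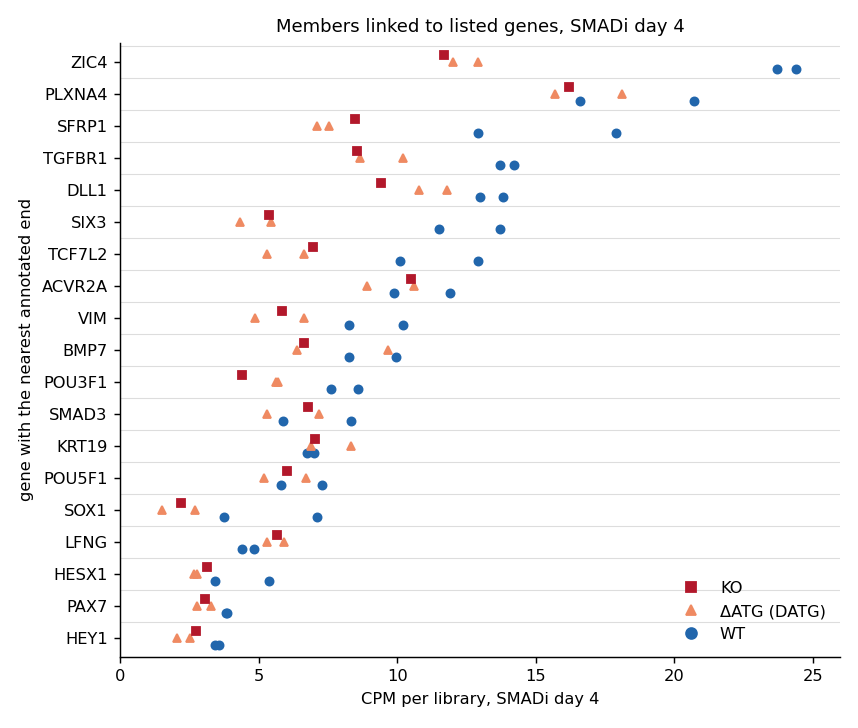
CPM in each SMADi day 4 library at the members named for a listed gene. At ZIC4, SFRP1, TGFBR1 and SIX3 every KO and ΔATG library lies below both WT libraries, while ACVR2A, SMAD3 and PLXNA4 show overlap.

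Among members called higher in a mutant line on day 4, 4 are named. The member near NEFM, a neurofilament gene, had 4.77 CPM in KO and 4.19 and 5.00 CPM in ΔATG, against 2.46 and 2.16 CPM in WT and was higher in KO (1.11 ± 0.38, adjusted p = 0.0295) and in ΔATG (1.03 ± 0.32, adjusted p = 0.0125). CACNA1E, a calcium channel gene, holds a member with 4.31 CPM in KO and 6.70 and 4.88 CPM in ΔATG, against 1.94 and 2.73 CPM in WT, higher in ΔATG (1.34 ± 0.30, adjusted p = 0.000547), with 0.94 ± 0.37, adjusted p = 0.0549 in KO. Members near MAPK4, a kinase gene (3.91 CPM in KO and 2.16 and 2.95 CPM in ΔATG, against 1.23 and 1.46 CPM in WT), and PSAPL1, a saposin-like gene (2.06 CPM in KO and 1.42 and 1.03 CPM in ΔATG, against 0.84 and 0.762 CPM in WT), were higher in KO (adjusted p = 0.00915 and 0.0343). By day 5 all 4 stood below WT, as the rule requires. The NEFM call was lost without WT day 4 replicate b (adjusted p 0.108 in KO and 0.0889 in ΔATG), in KO without WT replicate a (0.0657) and in ΔATG without ΔATG replicate b (0.13). Without WT replicate a the adjusted p was 0.0595 at MAPK4 and 0.0864 at PSAPL1, where it was 0.11 without WT replicate b. With DESeq2 it was 0.123 in KO and 0.0633 in ΔATG at NEFM, 0.0627 at MAPK4 and 0.109 at PSAPL1.

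Under BMP4 the difference had the opposite sign. A BMP4 region overlapped 1107 members (39.6%, against 73.1% of all regions), and these were compared in the separate BMP4 table. Their median level was 2.61 and 2.65 CPM in KO, 2.63 and 2.73 CPM in ΔATG and 2.62 and 2.45 CPM in WT on day 1. On day 4 it was 3.68 and 3.49 CPM in KO and 3.58 and 3.64 CPM in ΔATG, against 3.13 and 3.04 CPM in WT. On day 5 it was 5.43 and 4.69 CPM in KO and 4.27 and 4.48 CPM in ΔATG, against 3.20 and 3.17 CPM in WT, so the groups were apart on days 4 and 5. The same members under SMADi on day 5 had 2.33 and 2.40 CPM in KO and 2.58 CPM in ΔATG, against 8.47 and 7.65 CPM in WT.

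In WT itself, 416 of the 1107 (37.6%) were higher on BMP4 day 5 than on day 1 and 41 lower, where 20.3% of all regions were higher and 14.7% lower. The split of calls over all regions depended on scaling. Of all calls, 42.0% were lower with the main scaling, 58.9% with total counts, where the all-region median was -0.17, and 28.5% with DESeq2. With total counts 67 members were lower. The count of 41 was 24 and 27 without WT day 1 replicates a and b, and 15 without WT day 5 replicate b.

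On BMP4 day 5, 459 members (41.5%) were higher in KO than in WT and 76 lower, where 5.71% of all regions were higher and 10.1% lower, with a median log2 fold change of 0.62. In ΔATG 148 (13.4%) were higher and 29 lower, where 1.51% were higher and 3.16% lower, with a median of 0.41. Opened regions kept in both lines leaned the same way, with 30.4% higher in KO and 9.09% in ΔATG. Of all KO calls 64.0% were lower and of all ΔATG calls 67.7%. DESeq2 gave 43.3% for ΔATG, and total counts gave 56.9% for ΔATG. The counts depended on single libraries. The 459 in KO were 283 without WT day 5 replicate b and 223 without KO day 5 replicate a, and the 76 lower were 50 without WT day 5 replicate b. The 148 in ΔATG were 21 without WT day 5 replicate b, 90 without ΔATG replicate a, 69 without ΔATG replicate b and 13 with DESeq2. The 29 lower in ΔATG were 5 without WT day 5 replicate b, 14 without ΔATG replicate b and 1 with DESeq2.

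**Figure D5:**
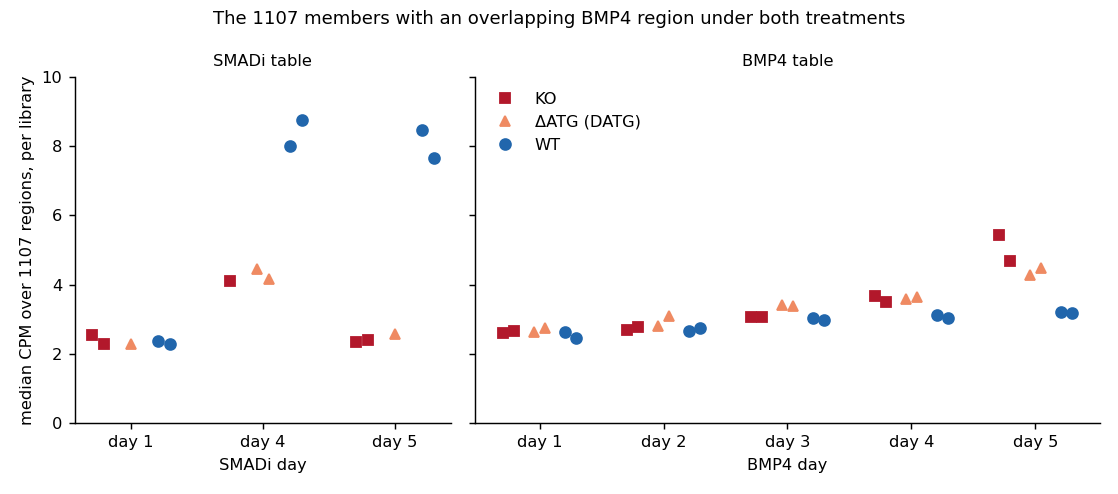
Median CPM of the 1107 members that overlap a BMP4 region, in each SMADi library and each BMP4 library, by day and genotype. Under SMADi the mutant libraries stand below WT on days 4 and 5, and under BMP4 they stand above WT on day 5, at 4.27 to 5.43 CPM against 3.17 to 3.20 CPM.

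Of the 589 members with a BMP4 region that were lower in KO on SMADi day 4, 293 (49.7%) were higher in KO on BMP4 day 5, which is 63.8% of the 459, and 28 were lower in both. Over all 1107 the shares were 41.5% higher under BMP4 and 53.2% lower under SMADi. For ΔATG it was 104 of 667 (15.6%, and 70.3% of the 148), with 13 lower in both, where 13.4% of the 1107 were higher under BMP4 and 60.3% lower under SMADi. Of all regions with a BMP4 region that were lower on SMADi day 4, 17.0% were higher in KO under BMP4, where 6.55% of all such regions were, and 4.98% in ΔATG, where 1.76% were. Whether the joint counts depart from the separate shares was not tested. The tables share no libraries. The members given next, at PLEKHA7, CDC6 and IER5L, were named for calls in both lines on BMP4 day 5. Their BMP4 direction was therefore fixed by the naming. Of the 4 members so named, 3 were lower on SMADi day 4 in KO and 3 in ΔATG. The PLEKHA7 member chr11:16977926-16978126 had 7.83 and 4.95 CPM in KO and 4.00 and 6.22 CPM in ΔATG, against 1.46 and 0.983 CPM in WT on BMP4 day 5 (KO 2.35 ± 0.33, adjusted p = 3.29e-08; ΔATG 1.96 ± 0.38, adjusted p = 0.00047). Without WT day 5 replicate b the adjusted p in ΔATG was 0.0721. The member inside CDC6, a replication licensing gene, had 6.69 and 4.82 CPM in KO and 4.41 and 7.96 CPM in ΔATG, against 1.31 and 1.75 CPM in WT on BMP4 day 5 (KO 1.81 ± 0.33, adjusted p = 1.14e-05; ΔATG 1.83 ± 0.35, adjusted p = 0.000475). On SMADi day 4 it had 2.72 CPM in KO and 4.19 and 4.82 CPM in ΔATG, against 16.0 and 15.4 CPM in WT (KO -2.47 ± 0.31, adjusted p = 9.55e-08; ΔATG -1.76 ± 0.22, adjusted p = 4.2e-08). At both members every mutant library lay below WT on SMADi day 4 and above it on BMP4 day 5. The member near IER5L had 6.19 and 4.56 CPM in KO and 4.13 and 6.97 CPM in ΔATG, against 1.31 and 1.42 CPM in WT on BMP4 day 5 and 1.59 CPM in KO and 2.57 and 1.45 CPM in ΔATG, against 6.46 and 6.98 CPM in WT on SMADi day 4, the same pattern.

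Near SIX3, chr2:44790414-44790614 had 26.6 and 17.6 CPM in KO and 12.8 and 17.7 CPM in ΔATG, against 7.72 and 6.01 CPM in WT on BMP4 day 5, higher in KO (1.65 ± 0.19, adjusted p = 9.56e-11) and in ΔATG (1.07 ± 0.21, adjusted p = 0.000861). The SIX3 member itself had 4.29 and 4.56 CPM in KO and 4.13 and 5.47 CPM in ΔATG, against 2.18 and 2.62 CPM in WT, above WT in all 4 mutant libraries but short of the threshold (adjusted p = 0.0546 in KO and 0.0904 in ΔATG). The SOX1 member had 5.56 and 4.04 CPM in KO and 3.17 and 2.24 CPM in ΔATG, against 1.89 and 1.09 CPM in WT, higher in KO (1.66 ± 0.35, adjusted p = 0.000169), with an adjusted p of 0.223 in ΔATG. The BMP7 member chr20:57198729-57198929 had 6.44 and 6.90 CPM in KO and 5.10 and 4.98 CPM in ΔATG, against 2.18 and 1.75 CPM in WT, higher in KO (1.71 ± 0.30, adjusted p = 4.47e-06) and in ΔATG (1.33 ± 0.34, adjusted p = 0.00892). KRT19, a keratin gene of simple epithelia, had 4.67 and 5.21 CPM in KO and 6.20 and 7.96 CPM in ΔATG, against 7.43 and 7.32 CPM in WT and was lower in KO (-0.64 ± 0.23, adjusted p = 0.0387). Of the 15 listed members with a BMP4 region, 7 were higher and 1 lower in KO, and 2 were higher and none lower in ΔATG. Some of these calls were lost without WT day 5 replicate b, at chr2:44790414-44790614 in ΔATG (adjusted p 0.103), at SOX1 in KO (0.055) and at BMP7 in ΔATG (0.208), the last also without ΔATG replicate a (0.0904). The KRT19 call was lost without any of the 4 KO and WT day 5 libraries (0.0851 to 0.216) and with DESeq2 (0.239). The count of 7 was 5, and that of 2 was 0, without WT day 5 replicate b, and the 2 were 0 without ΔATG replicate a and with DESeq2.

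Few members were regions before treatment. A day 0 region overlapped 228 (8.16%, against 58.5% of all regions). None of the 228 was called in KO by edgeR or DESeq2, where edgeR called 0.0318% of all regions lower and 0.0537% higher. In ΔATG 2 were lower and 1 higher by edgeR, where 0.165% of all regions were lower and 0.0408% higher, and none by DESeq2. The 2 were 0 without WT replicate a, ΔATG replicate a or ΔATG replicate b, and 1 without WT replicate b. The 1 was 0 without WT replicate a or ΔATG replicate b, and 2 without WT replicate b. At an unadjusted p under 0.05, 24 (10.5%) were lower and 10 (4.39%) higher in KO, where 3.97% of all regions were lower and 4.33% higher. In ΔATG 23 (10.1%) were lower and 6 (2.63%) higher, where 5.06% and 3.76% were. The median log2 fold change was -0.09 in KO and -0.07 in ΔATG, and in ΔATG it was 0.05 without WT replicate a.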

How the data were processed

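ATAC-seq counts per region were deposited by the authors as whole-number counts in 3 tables (SMADi 162317, BMP4 142087 and day 0 100584 regions of 201 bp), in 51 libraries grouped by their labels. MACS2 and GRCh38 are named in the submitters' processing notes; of the aligner, duplicate handling and any transposase shift, the sources used here give nothing. Each table was fitted separately with edgeR 4.0.16 in R 4.3.3 (quasi-likelihood test, TMM, filterByExpr, Benjamini-Hochberg adjustment over all regions tested, threshold 0.05). DESeq2 1.42.0, other scalings, no filter, a replicate block and leaving out each library were alternatives. The fit was tested on simulated counts (20000 regions). On SMADi day 4, 24% of changes of 1 on the log2 scale were recovered for KO and 40% for ΔATG, so most changes of this size were missed. Of changes of 0.5, 0% were recovered for KO and 5% for ΔATG. The comparison of KO with ΔATG was not simulated. A single library (KO day 4, ΔATG day 1) was assumed to vary like the other groups. The letters a and b were not treated as pairs, since correlations of deviations ran from -0.235 to 0.264. Regions were linked to genes within 50 kb and to regions of other tables by an overlap of at least 1 bp, with python 3.11.15.

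The members and gene lists were chosen with earlier results of these data known. Named regions were the 8 highest in WT day 5, those in the stretches with the most members, 20 at listed genes, those with the lowest p-values or largest changes on day 4, 4 called higher on day 4, 4 called higher under BMP4, and 3 on each side of the threshold; 2 of these regions are not reported here.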

Additional observations from a re-analysis of the deposited data

Results flagged for a closer look

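The 1107 members with a BMP4 region were called up because their differences had opposite signs in the 2 treatments. Their median log2 fold change of KO over WT was -0.85 on SMADi day 4 and 0.62 on BMP4 day 5. For ΔATG over WT it was -0.77 on SMADi day 4 and 0.41 on BMP4 day 5. The difference between treatments was not tested, since the tables hold separate region sets and the days differ.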

How the results depend on the processing

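The counts of members lower on SMADi day 4 stayed within 1.5 times of 1314 in KO and 1526 in ΔATG when single libraries were left out (990 to 1296 in KO and 1064 to 1501 in ΔATG) and with DESeq2 (900 and 1148). No printed fold change of a named member reversed under these alternatives where it was called in the main or the alternative fit. Sign changes between fits without a call were not counted. The ΔATG day 0 median was 0.05 without WT replicate a and -0.07 with all libraries. The side with most calls over all regions turned for WT under BMP4 with total counts (58.9% lower, 42.0% before) and for ΔATG under BMP4 with DESeq2 (43.3% lower, 67.7% before). Of 78 day 4 calls at named members, 26 were lost when at least 1 library was left out, 21 of them without WT day 4 replicate b and 11 without replicate a, and 22 with DESeq2. Leaving out libraries for single members over time and under BMP4 and for the gene list counts was added after seeing the data. With DESeq2, members higher on day 4 were 4 in KO and 9 in ΔATG, members lower on day 4 than day 1 were 27 in KO and 42 in ΔATG, and under BMP4 there were 12 lower in WT over time, 45 lower and 253 higher in KO, and 1 lower and 13 higher in ΔATG, with 0 lower and 0 higher in ΔATG at day 0. With total counts 67 were lower in WT under BMP4. With a replicate block, 1165 were lower in KO and 1484 in ΔATG on day 4, and 1 in ΔATG at day 0; the letters did not pair the libraries.

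Leaving out single libraries gave 2 to 19 members higher in KO and 9 to 30 in ΔATG on day 4, and 34 to 40 lower in KO and 36 to 61 in ΔATG than on day 1. Under BMP4 it gave 15 to 30 lower in WT, 50 to 68 lower and 223 to 450 higher in KO, and 5 to 26 lower and 21 to 106 higher in ΔATG, and at day 0 it gave 0 to 1 lower and 0 to 2 higher in ΔATG. KO day 4 and ΔATG day 1 and day 5 have 1 library each and could not be left out. The rule itself gave 4399 members at 2 CPM, 824 at 8 CPM and 1237 at 1/3 of WT. Alternatives added after seeing the data chose members without WT day 5 replicate b, and then 30 were higher in KO and 48 in ΔATG on day 4, and 109 lower in KO and 141 in ΔATG than on day 1. The cause of these shifts was not tested.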
